A study of Mus musculus with 12 samples.

Results

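Proteins of the lipid droplet and the lipases that work on it were followed through adult mouse liver in 10 genes: the perilipins Plin2, Plin4 and Plin5, the CIDE proteins Cidea, Cideb and Cidec, the fat storage protein Fitm1, the lipase inhibitor G0s2, and the patatin-like proteins Pnpla2 and Pnpla3. They were taken by name, with earlier results of these data known, and all 10 were found among the 24527 gene symbols of the deposited count table. The data were messenger RNA libraries from the livers of 12 mice aged 39 weeks, all offspring of CF1 females and B6SJL males. The mice were female or male, and conceived either naturally or by in vitro fertilization (IVF, with a Jackson Laboratory protocol), which gave 4 groups of n = 3 libraries: natural females (Nat_F), IVF females (IVF_F), natural males (Nat_M) and IVF males (IVF_M). No treatment or genetic change was named in the labels, and the study asked how conception by IVF affects the adult liver in each sex. The labels named no litter, dam or batch, so p-values measure the spread between these libraries. The titles of IVF female replicate 1 and IVF male replicate 2 share a number whose meaning is not stated, and whether these mice are related was not tested. RNA came from a piece of whole liver, and in such bulk tissue fewer cells of a type and less RNA per cell cannot be told apart.

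A lipid droplet is a core of triglyceride and sterol ester inside a single layer of phospholipid, and it buds from the endoplasmic reticulum. Perilipins coat the surface and control access of lipases, CIDE proteins pass lipid from one droplet to another so that droplets fuse and grow, and FIT proteins of the endoplasmic reticulum help to package the newly made fat. The first step of droplet lipolysis is carried out by adipose triglyceride lipase, the product of Pnpla2, which G0s2 inhibits. In the liver, some of these genes are known to respond to feeding and fasting, and some to rise as fat builds up in hepatocytes.

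Total counts ranged from 6826534 to 27832271 per library. The samples had the markers of hepatocytes: all 7 marker genes examined passed the filter on low counts, with a summed level of 81338 to 121478 CPM, the counts scaled to a common library size with TMM factors. The libraries of smallest total, IVF female replicate 1 and natural female replicate 2, held fewer counts of GC-rich genes than the other females: the median difference was -0.48 on the log2 scale in both libraries for the genes in the top GC quintile. The transcripts of the 10 genes have GC contents of 52.1% to 60.6%, and values without these 2 libraries are given where leaving them out moved a result. Of the 10 genes, 9 passed the filter. Cidea, which is abundant in brown fat and in some fatty livers, had 0 to 3 counts per library, 9 in all, and was not tested. Where it had no count, the limit from counting error alone (3 counts) lay between 0.108 CPM in the largest library and 0.439 CPM in the smallest, before TMM scaling.

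Levels were compared between genes as CPM per kilobase of exon, which removes the length of the transcript. Plin2, the main perilipin of hepatocytes, had a mean of 60.0 CPM per kilobase over the 12 libraries and G0s2 had 59.0. They could not be ranked against each other, since Plin2 was above G0s2 in 5 of the 12 libraries. G0s2 was above the next gene, Pnpla2, in 11 of 12. Pnpla2 had 18.5 CPM per kilobase, Cideb, a CIDE protein of hepatocytes that also takes part in lipoprotein loading, had 18.4, and Plin5, a perilipin of oxidative tissues that links droplets to mitochondria, had 15.9. These 3 genes overlapped in range and were not separated by their spread. Fitm1 had a mean of 10.5 CPM per kilobase, with a range of 0.385 to 41.1 in which all males lay above all females. Plin4 at 1.58, Cidec at 1.24 and Pnpla3 at 0.719 CPM per kilobase were the least abundant of the 9. The level of Cideb is the most uncertain: its exons overlap those of Nop9, on the other strand, over 1136 of 1488 bases, and the use of strand in counting is not given in the sources used here, so reads of the pair cannot be told apart. Shorter overlaps were 109 of 971 bases for Fitm1 (antisense gene Gm15932), 105 bases for Pnpla3 (Gm49513, on the same strand) and 17 bases for Plin4 (Hdgfl2, on the other strand).

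**Figure D1:**
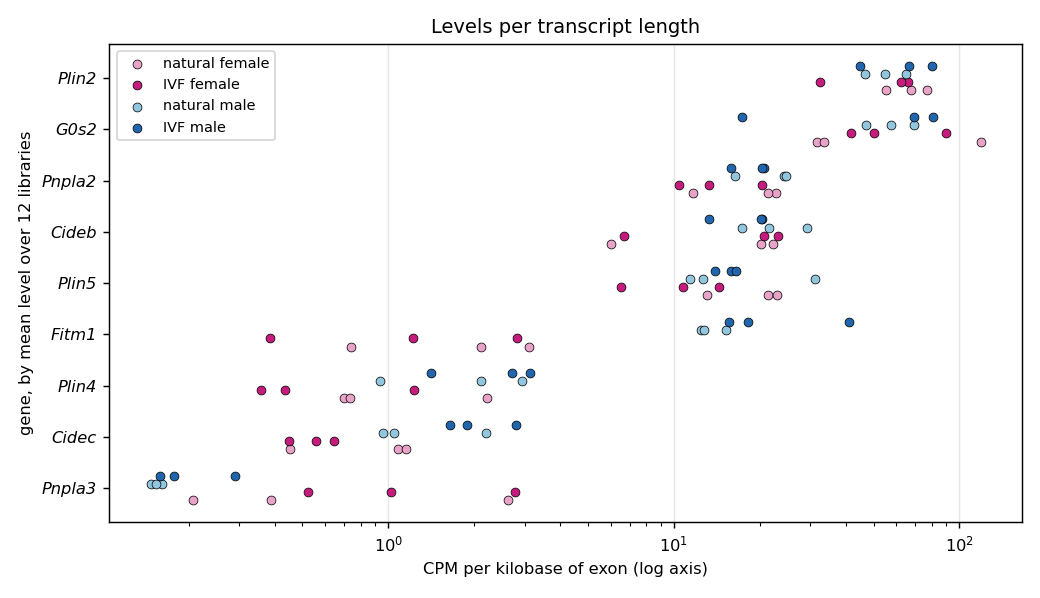
CPM per kilobase of exon (horizontal log axis) for the 9 tested genes, ordered by their mean over the 12 libraries; each point is 1 library, coloured by group. Plin2 and G0s2 overlap at the top, and the Fitm1 points of the 6 males, from 12.5 to 41.1, lie apart from those of the 6 females, from 0.385 to 3.10.

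The DNA just before the transcription starts is shown for 5 of these genes. Fitm1, Cidec and Pnpla3 had the largest fold changes between the sexes in IVF animals. Pnpla3 passed the filter through females alone, which built in a lower male level. Plin2 and Plin5 are the members whose windows hold a nuclear receptor half-site. The sequences are the 250 bases before the first listed start, from RefSeq's promoters on GRCm38.p6, read 5′ to 3′ on the strand of the gene. RefSeq entries matched 9 of the 10 genes, all but Cidea, with 11 starts. Capitals mark matches on either strand to 5 motifs: TTCNNNGAA (STAT5), AGGTCA (the half-site bound by PPAR and other nuclear receptors), CACGTG (E-box), TATAAA and CCAAT.
Fitm1 (chr14:55575424-55575673, plus strand): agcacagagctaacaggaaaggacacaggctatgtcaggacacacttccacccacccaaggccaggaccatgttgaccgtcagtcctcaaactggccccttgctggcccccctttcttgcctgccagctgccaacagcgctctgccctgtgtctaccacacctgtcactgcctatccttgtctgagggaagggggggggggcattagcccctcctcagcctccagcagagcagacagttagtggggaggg
Cidec (chr6:113435761-113436010, minus strand): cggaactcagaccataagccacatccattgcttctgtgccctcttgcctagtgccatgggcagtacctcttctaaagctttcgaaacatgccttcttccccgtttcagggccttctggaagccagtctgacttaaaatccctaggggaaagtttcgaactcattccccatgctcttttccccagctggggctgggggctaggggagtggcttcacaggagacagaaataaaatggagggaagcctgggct
Pnpla3 (chr15:84167566-84167815, plus strand): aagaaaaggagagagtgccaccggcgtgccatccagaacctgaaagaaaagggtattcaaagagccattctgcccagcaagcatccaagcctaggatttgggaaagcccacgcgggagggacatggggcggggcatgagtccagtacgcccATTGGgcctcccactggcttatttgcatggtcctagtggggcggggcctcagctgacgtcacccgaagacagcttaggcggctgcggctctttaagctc
Plin2 (chr4:86670060-86670309, minus strand): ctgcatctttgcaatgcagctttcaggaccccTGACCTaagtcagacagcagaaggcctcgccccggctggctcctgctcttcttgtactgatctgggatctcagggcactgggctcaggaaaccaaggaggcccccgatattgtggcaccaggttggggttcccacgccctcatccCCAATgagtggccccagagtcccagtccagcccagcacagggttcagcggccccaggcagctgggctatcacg
Plin5 (chr17:56117549-56117798, minus strand): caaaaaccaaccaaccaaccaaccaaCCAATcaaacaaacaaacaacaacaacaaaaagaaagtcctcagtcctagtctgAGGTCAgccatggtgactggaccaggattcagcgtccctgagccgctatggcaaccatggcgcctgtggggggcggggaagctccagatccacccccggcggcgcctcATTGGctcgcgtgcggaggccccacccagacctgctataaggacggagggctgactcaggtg

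Fitm1 and Cidec had no match to the 5 motifs in these windows, which says only that these letters are not there. The half-site, in 14% of the 32851 promoter windows of this length, stood 218 bases before the start of Plin2 and 170 bases before that of Plin5. CCAAT, in 33.8% of windows, was found before Plin2, Plin4, Plin5 and Pnpla3. TTCNNNGAA, in 7.02% of windows, and CACGTG, in 6.02%, were in none of the 11 windows of these genes, and TATAAA, in 12.4%, was in that of Cideb.

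Male and female livers were compared first, because the clearest differences among these genes lay there. Fitm1 was higher in every male than in every female and passed the test in the IVF groups, where Cidec was also higher in males. Pnpla3 was lower in each male than in each female of the same mode of conception, but did not pass the test. Plin2, G0s2, Pnpla2, Cideb and Plin5 overlapped between the sexes in both modes of conception. By edgeR's quasi-likelihood test with Benjamini-Hochberg adjustment over 13204 genes, 2 of the 9 were called between IVF males and IVF females, both higher in males, where 2.19% of all genes were called in either direction and 0.909% as higher in males. Between natural males and natural females 0 of the 9 were called, where 1.77% of all genes were. In that comparison 2 of the 9 had an unadjusted p under 0.05, DESeq2 called 2 and limma voom called 1. In IVF animals 4 of the 9 had an unadjusted p under 0.05, where 14.9% of all genes had one in each comparison. The shares of all genes called by DESeq2 and limma voom are not given here, so their counts are not set against a background. Since the genes were chosen with earlier results of these data known, no enrichment is read from any of these counts. The comparison of IVF males with IVF females shares its libraries with the comparisons of IVF with natural conception below, so the 3 are not independent. Libraries of the sexes did not overlap for 2 of the 9 genes in natural animals, 1 higher and 1 lower in males, where 20% of all genes did not overlap (10.1% higher, 9.85% lower). In IVF animals it was 4 of the 9, with 3 higher and 1 lower, where 21.8% of all genes did not overlap (11.8% higher, 10.1% lower). The lower gene is Pnpla3 in both, and it is also 1 of the genes counted at an unadjusted p under 0.05 and of those DESeq2 called. It reached the filter minimum in females alone, which built in a lower male level, so nothing is read from its place in these counts. Of the other 8 genes, 1 in natural and 3 in IVF animals had an unadjusted p under 0.05 and did not overlap.

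**Figure D2:**
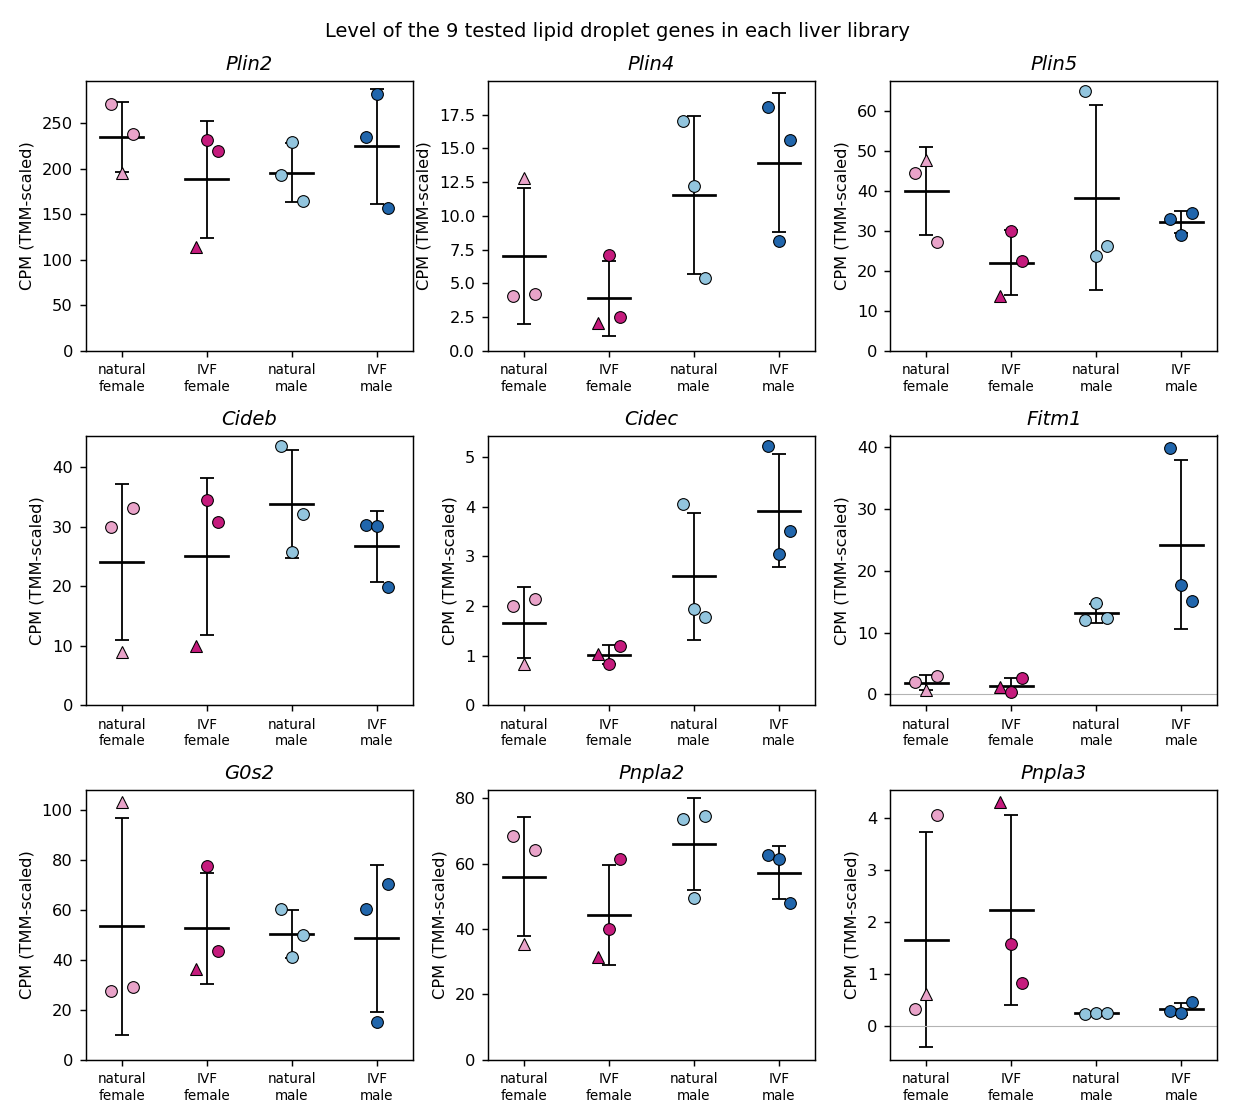
TMM-scaled CPM (vertical axis) in each of the 12 libraries for the 9 tested genes, by group; lines are means, bars 1 SD, and triangles are the 2 libraries of smallest total. Fitm1 stands at 12.1 to 39.9 CPM in males and 0.374 to 3.01 in females, and the Cideb level of both triangles is under 10 CPM.

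Fitm1 encodes an endoplasmic reticulum protein that binds triglyceride and is best known from muscle. Its level was 12.1, 14.8 and 12.3 CPM in natural males and 2.05, 0.719 and 3.01 CPM in natural females. In IVF males it was 39.9, 17.7 and 15.1 CPM, and in IVF females 1.19, 0.374 and 2.74 CPM. Every male library thus lay above every female library, and IVF male replicate 1 lay far above the other males. The log2 fold change, male against female, was 4.04 ± 0.65 (SE) in IVF animals, a 16.4-fold difference, and edgeR gave it an adjusted p-value of 0.00671. It passed in all 12 fits that left out 1 library, between 3.48 without IVF male replicate 1 and 5.23 without IVF female replicate 3. Without IVF female replicate 1 or IVF male replicate 2, which share a title number, its adjusted p-value in edgeR was 0.0293 and 0.0153. In natural animals the log2 fold change was 2.69 ± 0.61 (SE), or 6.47-fold, and just missed the threshold (edgeR, adjusted p-value 0.0524). The alternatives put this adjusted p-value between 0.000468 in DESeq2 and 0.105 without both libraries of smallest total, and between 0.0267 and 0.141 when 1 library was left out. It was under 0.05 without IVF female replicate 2 or 3. Markers of skeletal muscle summed to at most 0.492 CPM in males and 1.62 CPM in females, with Ckm at 0 counts in all 12 libraries.

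Cidec encodes a CIDE protein, also known as FSP27, that drives the growth of large droplets in adipocytes and fatty liver. It had 5.22, 3.05 and 3.50 CPM in IVF males, from 62 to 76 counts, and 1.04, 0.831 and 1.20 CPM in IVF females, from 7 to 28 counts. All IVF males were above all IVF females, and the log2 fold change of 1.93 ± 0.43 (SE), or 3.82-fold, passed (edgeR, adjusted p-value 0.0424). This call was near the threshold: it was lost on leaving out any of 10 of the 12 libraries, the exceptions being natural female replicate 2 and natural male replicate 1. The adjusted p-value in edgeR then reached 0.175 without IVF female replicate 2, and it was 0.105 and 0.0654 without either library of the shared title number. The call was also lost by library size alone (adjusted p-value 0.0664) and without both libraries of smallest total (0.0532), again in edgeR. The fold change itself stayed between 1.68 and 2.10 on the log2 scale in those 12 fits. In natural animals Cidec had 4.07, 1.95 and 1.78 CPM in males and 2.01, 0.839 and 2.14 CPM in females, so that the sexes overlapped. That gave a log2 fold change of 0.59 ± 0.41 (SE; edgeR, adjusted p-value 0.544), and 0.12 without natural male replicate 1. The 2 sex differences of Cidec differed by 1.34 ± 0.59 (SE) on the log2 scale, with an unadjusted p of 0.0435 in the interaction test of edgeR (adjusted p-value 0.99993), so they were not shown to differ.

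Pnpla3, or adiponutrin, encodes a droplet protein related to the lipase of Pnpla2 and is induced by lipogenic feeding. It was close to the lower limit of these data, with 4 to 9 counts per male library and 5 to 70 per female library, and it passed the filter through the females alone, where 5 of 6 libraries reached the minimum. Its level was 4.30, 1.58 and 0.812 CPM in IVF females and 0.275, 0.246 and 0.450 CPM in IVF males. In natural females it was 0.321, 0.599 and 4.06 CPM, and in natural males 0.228, 0.250 and 0.237 CPM. The highest levels were those of 2 females, IVF replicate 1 and natural replicate 3, and the lowest female level, 0.321 CPM, was under that of IVF male replicate 3. Since the gene passed the filter through females alone, a lower level in males was built into its being tested. The log2 fold change, male against female, was -2.64 ± 0.92 (SE) in IVF and -2.79 ± 0.92 (SE) in natural animals, with adjusted p-values of 0.192 and 0.177 in edgeR and 0.0380 and 0.0390 in DESeq2. Without natural female replicate 3 the natural value was -0.81, and without IVF female replicate 1 the IVF value was -1.89.

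Plin4, a perilipin of adipocytes and muscle with long amphipathic repeats, had a similar order of groups to Cidec. IVF males had 18.1, 8.17 and 15.6 CPM and IVF females 2.08, 7.11 and 2.52 CPM. These groups did not overlap, yet their log2 fold change, 1.78 ± 0.60 (SE), did not pass (edgeR, adjusted p-value 0.182). In natural animals males had 17.0, 12.2 and 5.42 CPM and females 4.05, 12.8 and 4.23 CPM, which overlapped, at a log2 fold change of 0.75 ± 0.59 (SE) that became 1.48 when natural female replicate 2 was dropped. Plin4 and Plin5 are neighbours on chromosome 17 (56100591 to 56109803 and 56111601 to 56117596, GRCm38). Plin5 had log2 fold changes, male against female, of -0.056 ± 0.39 (SE) in natural and 0.53 ± 0.39 (SE) in IVF animals. The same values were -0.26 ± 0.29 (SE) and 0.25 ± 0.29 (SE) for Plin2, 0.48 ± 0.49 (SE) and 0.077 ± 0.49 (SE) for Cideb, -0.072 ± 0.59 (SE) and -0.12 ± 0.59 (SE) for G0s2, and 0.23 ± 0.30 (SE) and 0.37 ± 0.30 (SE) for Pnpla2. Each of these 8 differences had an adjusted p-value of 0.632 or more in edgeR, and no direction by sex can be given for these 4 genes. Without both libraries of smallest total, natural animals gave 0.081 for Cideb, 0.078 for Plin5, -0.39 for Plin2, 0.82 for G0s2 and -0.026 for Pnpla2. IVF animals then gave -0.32 for Cideb, 0.25 for Plin5, -0.040 for Plin2, -0.36 for G0s2 and 0.15 for Pnpla2.

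**Figure D3:**
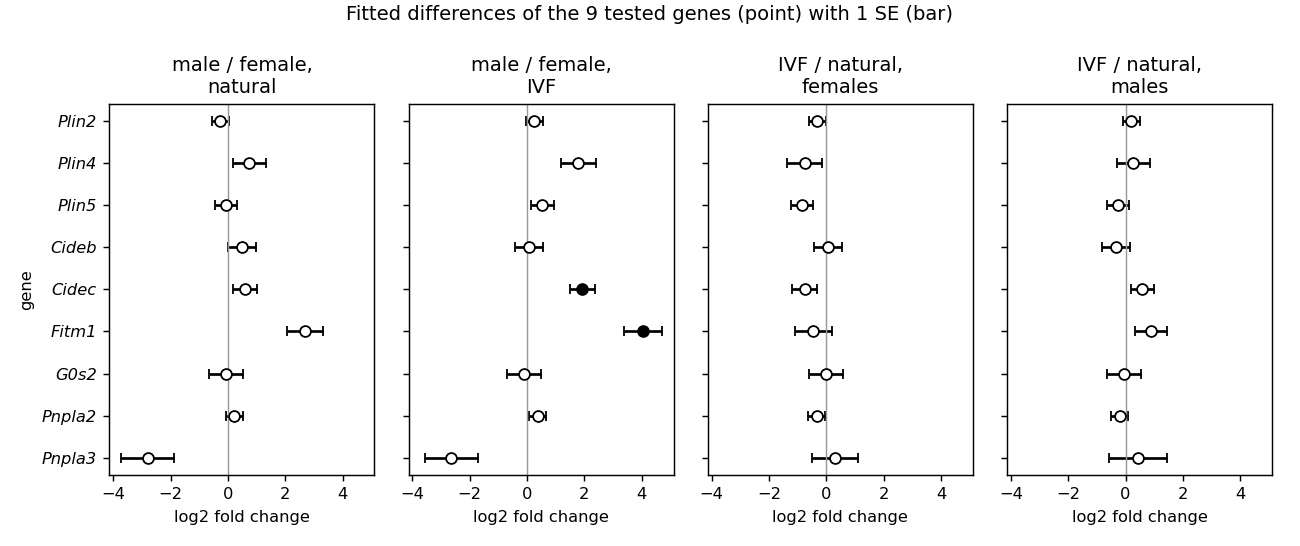
Fitted log2 fold change (horizontal axis) with 1 SE for the 9 tested genes in 4 comparisons; filled points have an adjusted p-value under 0.05 in edgeR's test. The filled points are Cidec and Fitm1 between IVF males and females, and no point is filled in the comparisons of IVF with natural conception.

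IVF was then compared with natural conception within each sex. None of the 9 genes was called in females or in males by edgeR, where 0% and 0.00757% of all 13204 genes were called. At an unadjusted p under 0.05 there were 0 of the 9 in either sex, against 3.7% and 2.69% of all genes, and DESeq2 and limma voom also called 0. The libraries of IVF and natural females overlapped for all 9 genes, where 7.42% of all genes did not overlap. In males 1 gene, Fitm1, did not overlap and was higher after IVF, where 8.91% of all genes did not overlap and 4.85% were higher. The median log2 fold change of the 9 genes was -0.34 in females, with 7 below 0, and 0.20 in males, with 4 below 0, beside medians of -0.015 and 0.0098 over all genes, of which 47.8% and 51.6% were above 0.

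Among the coat proteins, Plin5 had the smallest unadjusted p-value in females. It had 13.7, 30.1 and 22.5 CPM in IVF females and 44.6, 47.8 and 27.3 CPM in natural females, which overlapped by 1 library of each group. This log2 fold change, -0.84 ± 0.39 (SE), had an unadjusted p of 0.0543 (edgeR, adjusted p-value 1) and stayed between -1.13 and -0.57 when 1 library was left out. Without both libraries of smallest total it was -0.43. In males Plin5 had 33.0, 29.1 and 34.4 CPM after IVF and 65.0, 23.8 and 26.3 CPM after natural conception, and the log2 fold change of -0.25 ± 0.39 (SE) turned to 0.36 without natural male replicate 1. The average of both sexes was -0.55 ± 0.28 (SE), at an unadjusted p of 0.0713 (edgeR, adjusted p-value 0.999936), and -0.24 without natural male replicate 1.

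Plin2, whose protein level follows the fat content of hepatocytes, had 114, 232 and 219 CPM in IVF females and 271, 195 and 238 CPM in natural females. IVF female replicate 1, a library of small total, was the lowest of all 12, and without it the log2 fold change went from -0.32 ± 0.29 (SE) to -0.037. In males Plin2 had 234, 282 and 157 CPM after IVF and 193, 229 and 164 CPM after natural conception, a log2 fold change of 0.20 ± 0.29 (SE). Plin4 differed by -0.76 ± 0.61 (SE) on the log2 scale in females, a value of -0.027 without natural female replicate 2 and of 0.24 without both libraries of smallest total, and by 0.27 ± 0.57 (SE) in males. No direction can be given for Plin2 or Plin4 after IVF from these libraries.

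Of the genes of droplet growth, Fitm1 was higher in each IVF male than in each natural male, with a log2 fold change of 0.89 ± 0.55 (SE) that did not pass, at an unadjusted p of 0.137 and an adjusted p-value of 1 in edgeR. It rested in large part on IVF male replicate 1, without which it was 0.32. In females the value was -0.46 ± 0.65 (SE), and 0.063 without IVF female replicate 2. Cidec had log2 fold changes of 0.59 ± 0.40 (SE) in males, or 1.07 without natural male replicate 1, and -0.75 ± 0.44 (SE) in females. Cideb had 9.94, 34.5 and 30.7 CPM in IVF females and 30.04, 8.99 and 33.2 CPM in natural females, a log2 fold change of 0.062 ± 0.49 (SE). In males it had 30.3, 30.1 and 19.8 CPM after IVF and 43.6, 25.7 and 32.1 CPM after natural conception, at -0.34 ± 0.48 (SE). Its lowest levels, 9.94 and 8.99 CPM, were those of the 2 libraries of smallest total, while the other 10 libraries held 19.8 to 43.6 CPM. In the same 2 libraries Nop9, the overlapping gene, was also lowest, at 8.61 and 9.11 CPM against 13.9 to 24.3 CPM elsewhere; the part of library composition in this was not tested.

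The lipolysis genes showed no shared direction. Pnpla2, the triglyceride lipase, had 31.5, 40.0 and 61.3 CPM in IVF females and 68.6, 35.4 and 64.2 CPM in natural females, a log2 fold change of -0.34 ± 0.30 (SE), or -0.13 without IVF female replicate 1. In males it had 62.6, 61.3 and 47.9 CPM after IVF and 73.6, 49.6 and 74.5 CPM after natural conception, at -0.20 ± 0.30 (SE). Of the 9 genes Pnpla2 varied least, with 2.37 times between its highest and lowest library. G0s2, the inhibitor of this lipase, varied by 6.85 times. It had 36.4, 77.9 and 43.7 CPM in IVF females and 27.7, 104 and 29.2 CPM in natural females. In males it had 60.6, 15.1 and 70.6 CPM after IVF and 60.4, 41.1 and 50.2 CPM after natural conception. The groups overlapped in both sexes, with natural female replicate 2 the highest and IVF male replicate 2 the lowest of the 12. The log2 fold change of G0s2 was -0.010 ± 0.59 (SE) in females and -0.055 ± 0.59 (SE) in males. In females this value depended on 1 library: it was 0.89 without natural female replicate 2, and 1.12 ± 0.56 (SE) without both libraries of smallest total (edgeR, adjusted p-value 0.962). Pnpla3 differed by 0.29 ± 0.81 (SE) in females, from -0.48 to 2.29 when 1 library was left out, and by 0.44 ± 1.02 (SE) in males.

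Whether the effect of IVF differed between the sexes was tested as an interaction, males minus females. None of the 9 genes was called by edgeR, DESeq2 or limma voom, and edgeR called 0% of all genes. Cidec, given above, was the member with an unadjusted p under 0.05, where 3.87% of all genes had one. Interactions were above 0 for 7 of the 9 genes, and for 53.6% of all genes. Fitm1 had an interaction of 1.34 ± 0.85 (SE) on the log2 scale, Plin4 of 1.03 ± 0.83 (SE), Plin5 of 0.59 ± 0.55 (SE) and Plin2 of 0.51 ± 0.41 (SE). Leaving out IVF male replicate 1 brought the Fitm1 value to 0.78, leaving out IVF female replicate 3 brought it to 2.53, and leaving out natural female replicate 2 brought that of Plin4 to 0.30. Without both libraries of smallest total, Cidec was at 1.60, Fitm1 at 1.56, Plin4 at 0.026, Plin5 at 0.18 and Plin2 at 0.35.

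Related genes of droplet formation, lipolysis and triglyceride synthesis, 45 in 6 lists, were read beside the members. Of these 41 passed the filter. Between IVF males and IVF females 2 of the 41 were called, both higher in males, with the 2.19% of all genes given above. They were Ldah, which encodes a droplet-associated hydrolase, and Pnpla6, which encodes a phospholipase of neurons and other cells. For Ldah the means were 51.4 ± 2.90 CPM (SD, n = 3) among IVF males and 29.1 ± 5.52 CPM (SD, n = 3) among IVF females, a log2 fold change of 0.82 ± 0.19 (SE; edgeR, adjusted p-value 0.0433). Pnpla6 had 19.0 ± 2.58 CPM (SD, n = 3) and 10.1 ± 1.80 CPM (SD, n = 3), with 0.90 ± 0.19 (SE; edgeR, adjusted p-value 0.0293). In natural animals Ldah also did not overlap, at 43.6 to 58.1 CPM in males and 27.6 to 33.9 CPM in females. Pnpla6 overlapped there, at 14.8 to 16.3 CPM in males and 11.9 to 15.5 CPM in females. Of the 41, 0 were called by edgeR in natural animals and 13 had an unadjusted p under 0.05, where 14.9% of all genes had one. There limma voom called 0 and DESeq2 called 5. The share of all genes called by DESeq2 is not given here, so its 5 are not set against a background. Log2 fold changes, male against female, were above 0 for 31 of the 41 in natural and 30 in IVF animals, with 47.9% and 50.7% of all genes above 0. By library size alone these counts were 18 and 22, with the median of all genes at -0.34 and -0.10.

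**Figure D4:**
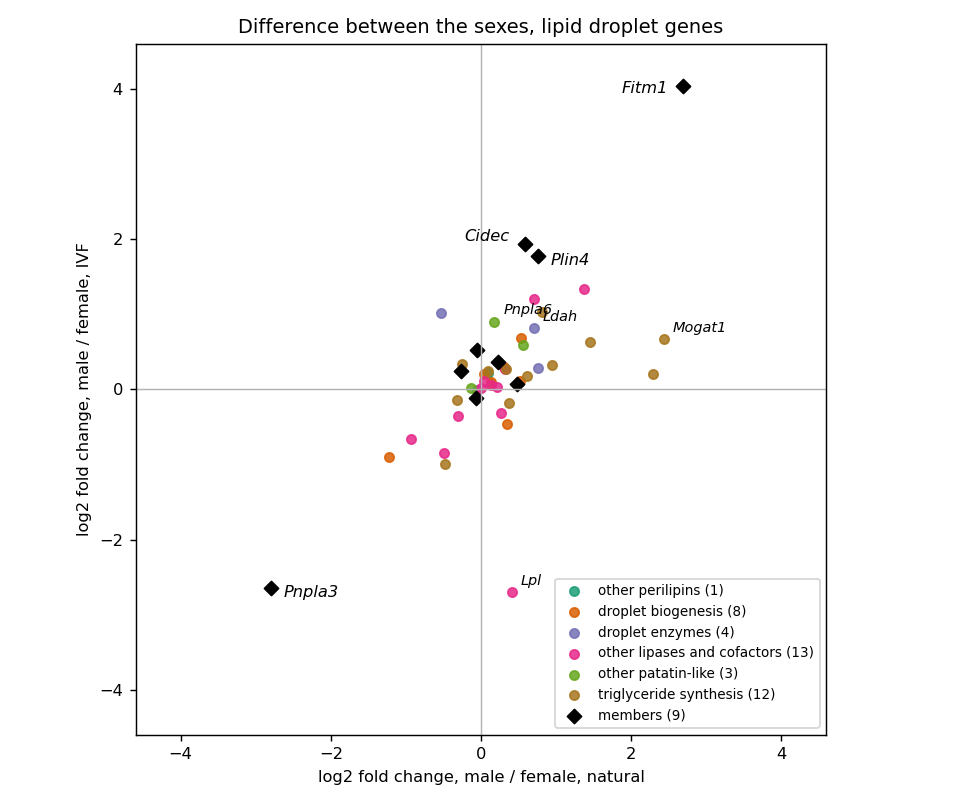
Log2 fold change, male against female, in natural animals (horizontal axis) and in IVF animals (vertical axis) for the 9 tested members and 41 related genes; each point is 1 gene, and the axes use different libraries. Fitm1 lies at the upper right, Pnpla3 at the lower left, and Lpl, low on the vertical axis, rests on 1 IVF female.

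In the 2 comparisons of IVF with natural conception 0 of the 41 related genes were called by edgeR, DESeq2 or limma voom, and 2 in females and 0 in males had an unadjusted p under 0.05, where 3.7% and 2.69% of all genes had one. The 2 were Lpl and Pnpla6. Pnpla6 had 8.01, 11.2 and 11.03 CPM in IVF females, all below the 15.5, 11.9 and 14.2 CPM of natural females, at a log2 fold change of -0.45 ± 0.19 (SE; edgeR, unadjusted p 0.0357, adjusted p-value 1). In males it had 18.7, 16.6 and 21.7 CPM after IVF, all above the 14.8, 15.98 and 16.3 CPM after natural conception, at 0.28 ± 0.19 (SE). Lpl, a lipase of the capillary wall that is low in adult hepatocytes, had 276 CPM in IVF female replicate 3 and from 7.98 to 30.6 CPM in the other 11 libraries. In females this gave a log2 fold change of 3.10 ± 1.05 (SE; edgeR, adjusted p-value 1). Mogat1, Plin3 and Acsl3 had the smallest p in lists with no such gene. Mogat1, which makes diacylglycerol and is induced in fatty liver, had 0 to 38 counts per library. Its log2 fold change in females was 2.14 ± 1.09 (SE), with 0, 23 and 15 counts after IVF and 3, 0 and 4 after natural conception. Plin3, the perilipin found in most cells, had 25.3 ± 3.17 CPM (SD, n = 3) in IVF and 27.2 ± 11.7 CPM (SD, n = 3) in natural females. Acsl3, an acyl-CoA synthetase of growing droplets, had 46.0 ± 33.6 CPM (SD, n = 3) and 23.8 ± 10.6 CPM (SD, n = 3) in these groups, which overlapped.

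Regulators with known targets among the members were read from a list of 11, none of which was called in any of the 6 comparisons by edgeR. Mlxipl encodes ChREBP, the sugar-responsive factor known to drive Pnpla3. It was lower in every IVF female (189, 142 and 142 CPM) than in any natural female (217, 190 and 294 CPM), though the closest libraries, both of small total, were at nearly the same level. In males it was higher in every IVF animal (126, 213 and 191 CPM) than in any natural animal (114, 124 and 120 CPM). It was the 1 regulator of the 11 without overlap in females, where 7.42% of all genes did not overlap. In males 2 of the 11 did not overlap and were higher after IVF, where 4.85% of all genes were. The other was Pparg, at 7.77 to 10.9 CPM after IVF and 4.55 to 7.44 CPM after natural conception. The interaction of Mlxipl, 1.13 ± 0.33 (SE) on the log2 scale, had an unadjusted p of 0.00517 (edgeR, adjusted p-value 0.99993). The targets of PPAR-alpha (12), the lipogenic genes (9) and the genes known to follow PPAR-gamma in fatty liver (4 tested of 5) had 0 calls by edgeR for IVF against natural conception in each sex, with percentages over all genes as above. At an unadjusted p under 0.05 they had 0, 2 and 1 genes in females and 1, 1 and 0 in males, in that order. Cyp4a14, a fatty acid hydroxylase under PPAR-alpha, had 382, 8.07 and 487 CPM in IVF males and 12.2, 67.2 and 1.38 CPM in natural males, which overlapped. Thrsp, a nuclear protein that goes with lipogenesis, had 498, 59.7 and 148 CPM in IVF females and 10.95, 19.8 and 96.3 CPM in natural females, again with overlap. Cd36, a fatty acid uptake protein, was called between the sexes in IVF animals. In natural animals it was not called but did not overlap, at 11.9 to 27.2 CPM in males and 40.3 to 80.3 CPM in females. Means were 27.4 ± 9.67 CPM (SD, n = 3) for the IVF males and 124 ± 74.1 CPM (SD, n = 3) for the IVF females, a log2 fold change of -2.18 ± 0.48 (SE; edgeR, adjusted p-value 0.0391), opposite in direction to Cidec and Fitm1.

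Markers of other cells that use the same genes were examined. Of 8 white adipocyte markers 2 passed the filter, Fabp4 and Lipe; Lep and Retn were at 0 in all 12 libraries, and Adipoq and Plin1 had at most 2 counts. The summed level of the 8 was 8.76 to 20.2 CPM and overlapped between all 4 groups. Ucp1, the defining gene of brown fat, was at 0 in all libraries. Elovl3, in the same list of 4, is known as a male-biased liver gene. It stood at 89.3 ± 57.3 CPM (SD, n = 3) for the IVF males and 3.88 ± 1.54 CPM (SD, n = 3) for the IVF females. In natural animals it was also called higher in males by edgeR. Means there were 77.9 ± 3.50 CPM (SD, n = 3) in males and 6.03 ± 5.52 CPM (SD, n = 3) in females. Stellate cells, which store retinyl ester in droplets, had all 7 of their markers above the filter, with sums of 366 to 467 CPM among IVF females and 242 to 291 CPM among IVF males, and of 316 to 396 and 289 to 347 CPM among natural females and males. Macrophage markers, 7 of 7, summed to 252 to 396 CPM in IVF females and 124 to 194 CPM in IVF males, with Vsig4 and Clec4f called lower in IVF males by edgeR (adjusted p-values of 0.00390 and 0.0215). Hepatocyte markers summed to 81338 to 93019 CPM in IVF males, below the range of 104560 to 121478 CPM in IVF females. Alb was the largest part of this sum, with means of 49062 CPM in IVF males and 76978 CPM in IVF females. Of the 7 hepatocyte markers, 3 were higher and 4 lower in IVF males by log2 fold change, with a median of -0.068. The 6 markers of lipid-associated macrophages overlapped between the IVF sexes, with sums of 32.2 to 55.6 CPM in males and 33.3 to 73.8 CPM in females. The other 3 sums, of stellate, macrophage and hepatocyte markers, were lower in the IVF males, where Fitm1 and Cidec were higher. In natural animals the sexes overlapped in all 3, with hepatocyte sums of 104293 to 107270 CPM in males and 100320 to 112203 CPM in females and macrophage sums of 224 to 262 and 243 to 332 CPM, while every natural male had more Fitm1 than every natural female. The IVF males also lay below the natural males in hepatocyte and macrophage sums. The Fitm1 difference between these male groups, given above, did not pass the test and rested in large part on IVF male replicate 1. The part of these cells in the differences was not tested.

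The genes whose log2 CPM was most like that of each member over the 12 libraries were sought among the 11812 genes whose mean reached 1 CPM. For Fitm1 they were Susd4 and Tgfbrap1, both with Pearson's r = 0.96, and 0.87 and 0.74 after group means were removed. Cidec was most like Chrnb2 (r = 0.95, or 0.92 with group means removed) and Ugt2b38 (r = 0.93, or 0.76 with group means removed). Pnpla3 was most like Parvb (r = 0.91, or 0.86 with group means removed), which lies near it on chromosome 15 (84232043 to 84315688, against 84167837 to 84187236 for Pnpla3, GRCm38). Cideb was most like Tmem59 and Acads (r = 0.98 for both, before and after group means were removed). Pnpla2 was most like Slc37a4 and Stradb (r = 0.96 for both, or 0.96 and 0.99 with group means removed). Plin2 was most like Gpatch2l (r = 0.92, or 0.92 with group means removed) and Plin5 most like Gemin2 (0.89, or 0.93). Plin4 was most like Whsc1 (r = 0.90, or 0.78 with group means removed) and G0s2 most like Sco1 (0.82, or 0.84). Among the members themselves, Cidec and Fitm1 had r = 0.88, or 0.64 with group means removed, Cideb and Pnpla2 had 0.82 and 0.85, and Plin4 and G0s2 had 0.45 and 0.79. These are descriptions over 12 libraries that share sex, depth and base composition, and the best of 11812 genes is high by choice.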

How the data were processed

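RNA of snap-frozen liver pieces from 12 mice was poly-A selected and sequenced on an Illumina NextSeq, per the labels' protocols. The authors deposited 1 table of whole-number counts per gene symbol; Trimmomatic 0.32, STAR 2.3.0e, featureCounts 1.5.0 and the build mm10 are named in the submitters' processing notes, while annotation, strand use and treatment of multiply matched reads are not given in the sources used here. Groups came from the labels, and replicate numbers follow accession order. The 10 genes and all related lists were chosen with earlier results of these data known.

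Counts were analysed in R 4.3.3 with edgeR 4.0.16. Genes were kept by filterByExpr with the groups (minimum count 10), which left 13204 of 24527 symbols. TMM factors and 1 quasi-likelihood model with 4 group means over all 12 libraries gave 6 comparisons, with Benjamini-Hochberg adjustment over all genes tested and a threshold of 0.05. SE is the log2 fold change divided by the square root of F. CPM per kilobase used exon unions of GENCODE M21 (GRCm38), where 23805 symbols matched by name and 325 by synonym. Likeness used log2 CPM with a prior count of 2. Beyond the 10, genes named were those called in any comparison, up to 4 a list, or else the gene of smallest unadjusted p-value for IVF against natural conception within a sex. Cps1, Fabp4, Ngfr, Mmp12 and Mylpf, named by this rule among the cell markers, were not called. Likeness gave the 2 genes of highest r a gene; for some, the first alone is printed. Alternatives were other scalings and filters, DESeq2 1.42.0, limma 3.58.1 voom, a GC offset (loess span 0.5), a fit of the compared groups alone, and fits without 1 library or without both libraries of smallest total.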

Additional observations from a re-analysis of the deposited data

How the results depend on the processing

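No paired analysis was possible because the groups compared share fewer than 2 numbers: 1 title number recurs, in IVF female replicate 1 and IVF male replicate 2, and replicate numbers only follow accession order. Of 370 values of the 42 log2 fold changes of the 9 genes under the alternatives, 345 kept their direction and side of the threshold, 2 lost a call, 8 gained one and 15 turned direction; of 504 values without 1 library, these numbers were 464, 10, 2 and 28. The cause of these changes was not tested. The 42 cover all 9 genes for IVF against natural conception within a sex and for male against female within a mode of conception. They also hold the interactions of Cidec, Fitm1, Plin4, Plin5 and Plin2 and the average effect of Plin5. The other interactions and averages were left out of these counts, among them values near 0 such as the G0s2 interaction of -0.044. No call of Fitm1 between IVF males and females was lost.

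Between natural males and females the count of the 9 genes called went from 0 to 1 with DESeq2 size factors, with no filter, with limma voom, with the GC offset and in the fit of the compared groups alone, to 2 in DESeq2's Wald test, and to between 0 and 1 without 1 library; related genes went from 0 to 1 by library size alone, 5 in DESeq2's Wald test, and 0 to 1 without 1 library. Between IVF males and females the count of the 9 went from 2 to 1 by library size alone and without both libraries of smallest total, and to 1 to 2 without 1 library. DESeq2's Wald test kept the calls of Fitm1 and Cidec there and also called Pnpla3, which passed the filter through females alone. Related genes went from 2 to 1 with DESeq2 size factors, in the compared groups alone and without both libraries of smallest total. They went to 0 by library size alone and with no filter, to 6 in DESeq2's Wald test, and to 0 to 3 without 1 library. Shares of all genes under other scalings, filters and tests are not given here, so these counts stand without a background.

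Among the 42 fold changes counted above, directions turned as follows, on the log2 scale. Without both libraries of smallest total, IVF against natural females gave 0.24 for Plin4, 1.12 for G0s2 and -0.83 for Pnpla3, natural males against females gave 0.078 for Plin5, 0.82 for G0s2 and -0.026 for Pnpla2, and IVF males against females gave -0.040 for Plin2 and -0.32 for Cideb. By library size alone, values were -0.014 for Cideb between the female groups, 0.072 for G0s2 between the male groups, -0.089 for Pnpla2 between natural sexes and -0.045 for Cideb between IVF sexes. G0s2 gave 0.0039 with no filter and 0.25 with limma voom between the female groups, and 0.23 with limma voom between natural sexes. Without 1 library, ranges between the female groups were -0.32 to 0.44 for Cideb, -1.65 to 0.063 for Fitm1, -0.41 to 0.89 for G0s2 and -0.48 to 2.29 for Pnpla3, and between the male groups -0.0014 to 0.40 for Plin2, -0.071 to 0.66 for Plin4, -0.52 to 0.36 for Plin5 and -0.42 to 0.37 for G0s2. Between natural sexes they were -0.67 to 0.19 for Plin5, -0.38 to 0.83 for G0s2 and -0.0097 to 0.41 for Pnpla2, and between IVF sexes -0.040 to 0.45 for Plin2, -0.32 to 0.37 for Cideb and -0.48 to 0.31 for G0s2. The fit of the compared groups alone was not run for the interaction and the average, which need all 12 libraries.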
